A study of Mus musculus with 14 samples.

Results

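Primary bone marrow-derived macrophages (pBMDMs) that had spent 24 h in fresh medium were compared with pBMDMs that had spent the same time in supernatant taken from live fibroblasts. The members are 8 of the 14 samples of the series, chosen by their labels. Of these, 2 were kept in fresh medium (medium, replicates 1 and 2) and 3 in supernatant of untreated fibroblasts (ctrl, replicates 1 to 3). The other 3 were kept in supernatant of fibroblasts given Ferrostatin-1 (Fer1, replicates 1 to 3), an inhibitor of the lipid peroxidation that drives ferroptosis. The ctrl and Fer1 samples were pooled as 6 live samples. The fibroblasts were Pfa1 cells, an immortalized line of embryonic mouse fibroblasts (MEFs). They carry a Cre recombinase that 4-hydroxytamoxifen (4OHT) activates and that then deletes GPX4, the enzyme that detoxifies lipid peroxides. In the ctrl and Fer1 groups that switch was not used. The macrophages were wild type and came from C57BL/6N mice. They were grown out of bone marrow with M-CSF, the growth factor that macrophages need, and were given filtered supernatant without fibroblasts. Supernatants with 4OHT (4OHT, 3 samples, from fibroblasts dying by ferroptosis) and with 4OHT and Ferrostatin-1 together (4OHT+Fer1, 3 samples) entered the same fit. No medium sample of replicate 3 was used here. The study's methods and labels do not settle which base medium the fresh medium was, so nutrients used up by fibroblasts, M-CSF and factors that fibroblasts release cannot be told apart in any result below.

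Bone marrow-derived macrophages in culture divide for as long as they receive M-CSF or a similar signal, and leave the cell cycle when it is withdrawn. They take up lipids with serum and make their own sterols and fatty acids when sterol-sensing transcription factors of the SREBP family are active. They also carry a basal level of interferon-driven, antigen presentation and inflammatory genes that responds readily to what surrounds them. MEFs release growth factors, chemokines and matrix proteins into their medium.

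Libraries were made from the 3′ ends of transcripts. Values are counts per 1000000 counts of a library (CPM), with library totals scaled by edgeR's TMM factors. Total counts ran from 8576780 to 10123845 in the live samples and were 8665594 and 9357193 in medium. A count of 3, taken as the detection limit, corresponded to between 0.298 and 0.381 CPM in these 8 samples and covers counting error only. TMM factors were 0.910 and 0.962 in medium and between 0.996 and 1.06 in the live samples. Transcripts of the mitochondrial genome took 5.46% and 7.77% of the counts in medium and 5.56% to 8.92% in the live samples. The labels do not say that samples with different replicate numbers came from different animals. If they did not, the p-values measure only the spread between these samples, which may be technical. Whether counting used the strand is not given in the sources used here. Reads may therefore be shared where genes overlap on opposite strands in the GENCODE M21 annotation (GRCm38), as Il1b does with Il1bos, Ccna2 with Exosc9, Cdc45 with Ufd1, Cxcl10 with Art3, Lpar6 with Rb1, Gas6 with Tmem255b, Csf1r with Hmgxb3, Tgfb3 with Ttll5, Cp with Hps3, Il18bp with Numa1, Tagln with Pcsk7, Psph with Cct6a and B2m with Patl2. Overlaps on the same strand join Ifi203 with Mndal, Fpr2 with Fpr3, Il4i1 with Nup62 and Serpinb2 with Serpinb10. The values of these genes are uncertain to that extent.

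Live fibroblast supernatant left macrophages with far more transcripts of the cell cycle and of sterol and fatty acid synthesis than fresh medium, and with far fewer of MHC class II, of Il1b, of the BMP target Id3 and of many interferon-stimulated genes. Of 12851 genes tested, 1118 (8.7%) differed between the live samples and medium. A gene was called where the quasi-likelihood test of edgeR gave a p under 0.05 after Benjamini-Hochberg adjustment and the log2 fold change exceeded 1 in size. Fold changes come from this fit, which has the replicate number as a term. Medium had no replicate 3, so they can differ from the ratio of the mean CPM values. In the live samples 569 were higher (4.43% of the genes tested) and 549 were lower (4.27%). Both shares are the background for the counts of every gene list below. The median log2 fold change over all genes tested was -0.01. In 1117 of the 1118 genes, all 4 live samples of replicates 1 and 2 differed from the medium sample of the same number in the direction of the call. The calls rest largely on these same differences, so this count is no separate check of them. In 906 of the 1118, the 6 live samples and the 2 medium samples did not overlap, as in 24.2% of all genes tested. No more than 3 counts were seen in either medium sample for 42 of the called genes and in every live sample for 6, and their fitted fold changes depend on the prior count of the fit. The number of calls depended on the replicate number and on both medium samples. Without the replicate number as a block in the fit, 621 genes passed. Leaving out medium replicate 1 or 2 gave 611 and 595 genes, with the lone medium sample assumed to vary like the other groups. Without all samples of replicate 1 or of replicate 2, 318 and 180 genes passed, and without those of replicate 3, 1228 genes. Fewer cells of a type and less RNA of a gene per cell cannot be told apart in these bulk samples.

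Both live supernatants gave this difference on their own. Against the same medium samples, 1001 genes passed for ctrl (7.79% of the genes tested) and 927 for Fer1 (7.21%), 2 comparisons that share their medium samples. Between Fer1 and ctrl, 0 genes passed (0% of the genes tested) and 146 had an unadjusted p under 0.05 with edgeR. DESeq2 called 3, Rpl35a-ps2, Gm26244 and Gm9722, which are named here after their values were seen. For 1078 of the 1118 genes, the log2 difference between Fer1 and ctrl was under 1 in size, and its median size was 0.17 against a median standard error of 0.31. With 3 samples a group, smaller differences were not detectable, and the absence of calls does not show that both supernatants act alike.

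**Figure D1:**
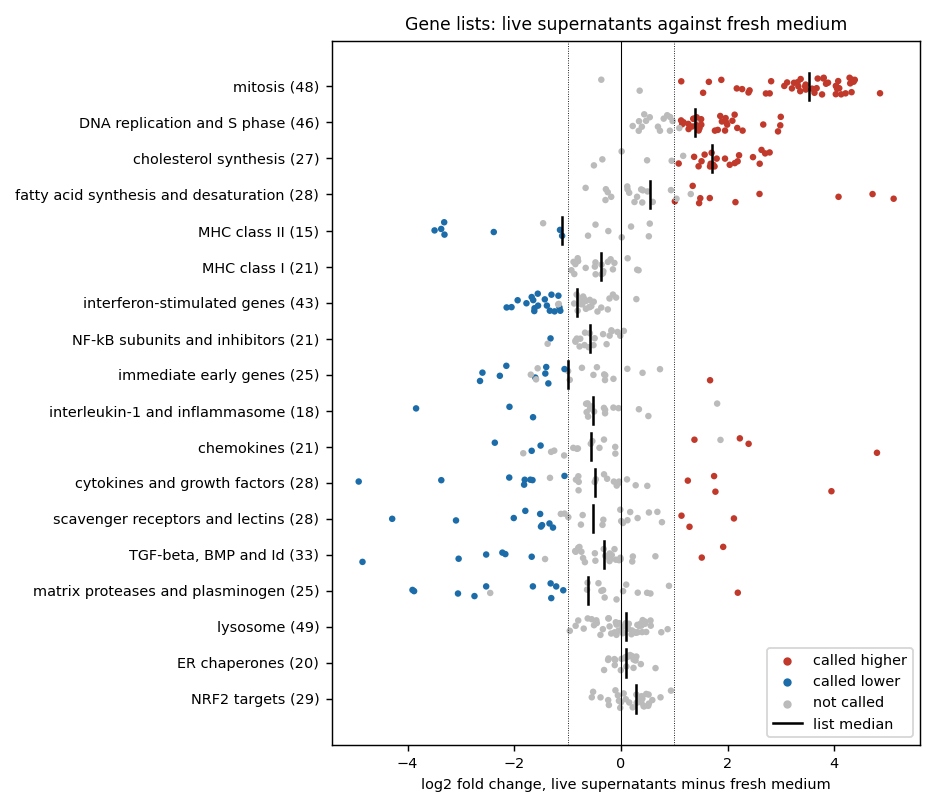
Log2 fold change of live samples against medium (x axis) for every tested member of 18 gene lists (y axis, with the number tested), drawn as 1 point a gene, red where called higher, blue where called lower and grey where not called. Dotted lines mark a log2 fold change of 1 in either direction and black bars the list medians, which run from 3.52 for mitosis to -1.10 for MHC class II.

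Samples differed by replicate number, and so did the distance of called genes from medium. Principal components were taken over all 14 samples from the 500 genes of highest variance. The first, with 34.6% of the variance, separated medium (scores 43.3 and 33.9) from the live samples (-18.3 to -8.33), and 4OHT lay between them (2.17 to 18.6). The second, with 24.1%, put the samples of replicate 3 apart from the others. Of the 569 higher genes, 277 had live samples of replicate 3 nearer to the medium level than those of replicates 1 and 2, and of the 549 lower genes, 345 did. The medium samples in the fit that called these genes were of replicates 1 and 2. Replicate 3 lying nearer to medium is therefore partly expected from this choice of genes. The share among uncalled genes was not taken. The gene groups differed in where replicate 3 stood. The 46 called genes of mitosis stood a median of 3.6, 3.23 and 3.54 above medium on the log2 scale in replicates 1, 2 and 3, while the 21 called genes of cholesterol synthesis stood 1.71, 1.85 and 0.92 above it. The 7 called MHC class II genes had medians of -3.40, -2.83 and -1.69. The 18 called interferon-stimulated genes, with -1.66, -1.51 and -3.07, were furthest from medium in replicate 3. Since replicate 3 has no medium sample here, its own level in medium and its response to supernatant cannot be told apart.

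**Figure D2:**
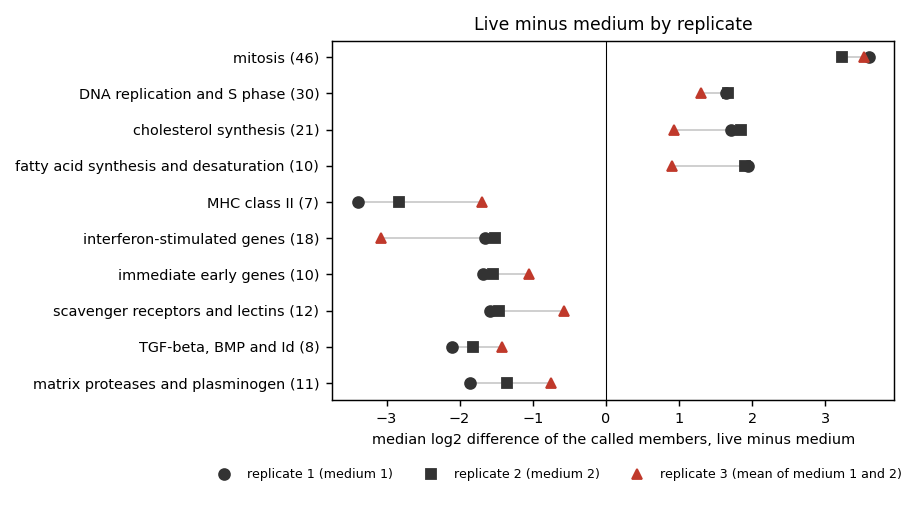
Median log2 difference between live samples and medium (x axis) over the called members of 10 gene lists (y axis, with the number of called members), for replicates 1 (circles), 2 (squares) and 3 (red triangles, against the mean of both medium samples). Replicate 3 lies between the others for mitosis, reaches 0.92 against 1.71 and 1.85 for cholesterol synthesis, and goes further from medium, to -3.07, for interferon-stimulated genes. The members were called in a fit whose medium samples are of replicates 1 and 2.

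Genes of mitosis rose together. The list holds 48 genes for the cyclins, kinases, kinesins and kinetochore proteins that carry a cell through division, all of which were tested. Of these, 46 were higher in the live samples and 0 were lower, against 4.43% higher among all genes, and the median log2 fold change was 3.52. The remaining 2, Pttg1 and Bub3, did not pass. Without medium replicate 1 or 2, 41 and 42 of the 48 passed. Cell division genes of this kind often carry a pair of short elements in their promoter, the CCAAT box, bound by the factor NF-Y, and the CHR element, bound by the DREAM and MuvB complexes. Promoters (250 bases before to 50 bases after the start of a gene) were taken from RefSeq, GRCm38.p6, and 40 members matched. CCAAT, on either strand, was found in 31 of them (77.5%), against 41.1% of all 27025 promoters. The CHR letters TTTGAA, on either strand, were found in 31 as well (77.5%), against 20.2% of all. These are matches of letters and not measured binding. The promoters of Ccnb2, the mitotic cyclin B2, and of Mki67, the proliferation antigen Ki-67, are shown as members with both elements, in capitals ( chr9:70421505-70421804, minus strand, and chr7:135716330-135716629, minus strand).
Ccnb2: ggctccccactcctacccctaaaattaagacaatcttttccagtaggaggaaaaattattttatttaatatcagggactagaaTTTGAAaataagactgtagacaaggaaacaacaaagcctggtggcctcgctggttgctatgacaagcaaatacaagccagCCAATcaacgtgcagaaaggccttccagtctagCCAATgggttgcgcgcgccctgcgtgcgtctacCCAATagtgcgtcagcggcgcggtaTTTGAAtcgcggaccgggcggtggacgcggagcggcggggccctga
Mki67: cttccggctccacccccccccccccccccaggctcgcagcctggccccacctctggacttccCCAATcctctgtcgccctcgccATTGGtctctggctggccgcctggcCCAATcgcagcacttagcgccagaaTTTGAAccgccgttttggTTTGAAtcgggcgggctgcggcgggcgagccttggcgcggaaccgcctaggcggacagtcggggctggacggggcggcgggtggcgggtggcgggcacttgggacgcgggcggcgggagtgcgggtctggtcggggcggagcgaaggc

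Ccnb2 itself had 2.67 and 3.004 CPM in medium, 48.9, 58.6 and 49.6 in ctrl and 48.01, 56.4 and 50.9 in Fer1, and every live sample stood far above both medium samples (log2 fold change 4.36 ± 0.55, adjusted p = 0.000269). Mki67 (ENSMUSG00000031004, chr7:135689784-135716361, minus strand) had 10.7 and 23.1 CPM in medium, 271, 292 and 348 in ctrl and 229.5, 327 and 382 in Fer1. It was 18.5-fold higher in the live samples (log2 fold change 4.21 ± 0.36, adjusted p = 2.53e-05), with no overlap and with replicate 3 as high as the others. Top2a, the topoisomerase that untangles chromosomes, had 24.5 and 44.4 CPM in medium, 504, 585 and 453 in ctrl and 467, 534 and 639 in Fer1 (log2 fold change 4.04 ± 0.40, adjusted p = 5.37e-05). Bub1, a kinase of the spindle checkpoint, showed the largest change of the list, with 0.889 and 1.22 CPM in medium, 22.99, 30.3 and 37.5 in ctrl and 23.3, 31.3 and 20.8 in Fer1 (log2 fold change 4.86 ± 0.67, adjusted p = 0.000476). Ccnb1 (log2 fold change 4.38 ± 0.60, adjusted p = 0.000468), the other mitotic cyclin B, had 1.397 and 3.67 CPM in medium and 36.5 to 54.9 in the live samples. Ccna2 (log2 fold change 4.33 ± 0.56, adjusted p = 0.000324), the cyclin of S phase and entry into mitosis, had 1.02 and 4.005 CPM in medium and 36.1 to 52.1 in the live samples. The summed level of the 48 genes was 839 and 943 CPM in medium and 3898 to 5022 CPM in the live samples. Among called genes of at least 5 CPM in the higher arm, predicted genes aside, the 10 with the largest rise include Bub1 and 5 others that dividing cells use. These are Prr11 (4.98 on the log2 scale), Pimreg (4.71), the spindle protein gene Aspm (4.54), the kinesin gene Kifc1 (4.54) and the DNA glycosylase gene Neil3 (4.60). Smc4, a subunit of condensin, was 1 of the 5 most abundant genes that rose, from 308 and 342 CPM in medium to between 559 and 1095 CPM (log2 fold change 1.13 ± 0.33, adjusted p = 0.0386). Smc4 was not called without the replicate block, nor when 1 of the medium samples was left out. It was also not called with the 8 samples alone or without the 4OHT samples.

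**Figure D3:**
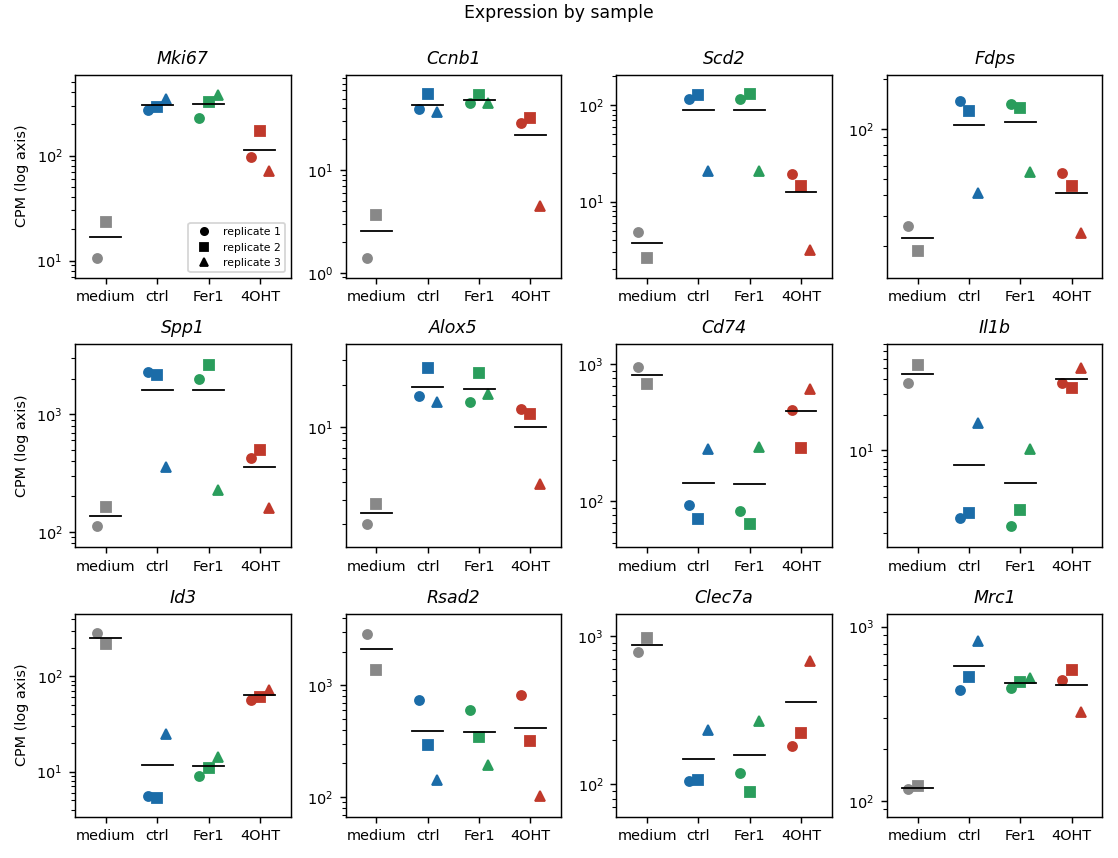
CPM of 12 genes (y axes, log scale) in the 2 medium, 3 ctrl, 3 Fer1 and 3 4OHT samples (x axes), with circles, squares and triangles for replicates 1, 2 and 3 and a bar at each group mean. Mki67, Ccnb1, Scd2, Fdps, Spp1, Alox5 and Mrc1 are higher in every ctrl and Fer1 sample than in medium, and Cd74, Il1b, Id3, Rsad2 and Clec7a are lower in every one.

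Genes of DNA replication rose as well, by less. Of 46 members, all tested, 30 were higher and 0 lower, with a median log2 fold change of 1.39 and no member below 0.22. Mcm3, a subunit of the helicase that opens replication forks, had 32.3 and 39.4 CPM in medium, 90.8, 123 and 66.3 in ctrl and 85.7, 121 and 69.6 in Fer1 (log2 fold change 1.51 ± 0.15, adjusted p = 5.82e-05). Mcm2, of the same helicase, had 8.001 and 5.896 CPM in medium and 5.08 to 21.6 in the live samples and did not pass (log2 fold change 0.92 ± 0.36, adjusted p = 0.125). Rrm2, the regulatory subunit of ribonucleotide reductase, which makes deoxynucleotides, had 3.94 and 5.78 CPM in medium, 27.7, 37.997 and 37.7 in ctrl and 32.1, 44.01 and 27.3 in Fer1 (log2 fold change 2.94 ± 0.32, adjusted p = 0.00011), and no live sample overlapped the medium samples. Clspn, claspin of the replication checkpoint, showed similarly separate groups, with 5.59 and 7.45 CPM in medium and 34.02 to 49.4 in the live samples (log2 fold change 2.67 ± 0.17, adjusted p = 3.08e-06). Cdc45 (log2 fold change 2.99 ± 0.36, adjusted p = 0.00018), another part of the helicase, had 0.762 and 0.779 CPM in medium and 4.53 to 8.55 in the live samples. Orc1 of the origin recognition complex had the largest fold change of the list (log2 fold change 3.00 ± 0.86, adjusted p = 0.0363) at levels near the count limit, with 2 counts over both medium samples and between 0.603 and 1.44 CPM in the live samples. Per library its counts were 9.22-fold higher (exact 95% counting interval 2.44 to 77.9). Letters of an E2F site, the element that opens S phase genes, were found in the forms TTTCCCGC and TTTGGCGC in 6 promoters each of 36 in the table (16.7% each, on either strand), against 1.24% and 0.585% of all promoters. The list lost members under other settings: 25 passed without the replicate block, 20 without medium replicate 1 and 15 without medium replicate 2. Orc1 was not called without the replicate block, nor when 1 of the medium samples was left out. It was also not called with DESeq2, with the 8 samples alone or without the 4OHT samples.

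Regulators of the G1 phase did not move as 1 group. Of 21 tested members, 5 were higher and 1 was lower, Mxd1 (-1.15), with a median of 0.36. The 5 were E2f7 (3.44), Cdkn2c (2.27), Cdkn2d (1.67), E2f8 (1.65) and Cdkn2a (1.3). E2f7 and E2f8 are repressors made in S phase, and the others are inhibitors of cyclin-dependent kinases. E2f7 had 0.762 and 0.445 CPM in medium, 5.77, 8.44 and 6.63 in ctrl and 5.65, 6.05 and 6.28 in Fer1 (log2 fold change 3.44 ± 0.47, adjusted p = 0.000471). Cdkn2c had 4.44 and 4.45 CPM in medium and 14.8 to 24.7 in the live samples (log2 fold change 2.27 ± 0.38, adjusted p = 0.00155). The D cyclins, which answer to growth factors, did not pass. Ccnd1 had 199.5 and 223 CPM in medium, 139, 298 and 40.6 in ctrl and 123, 260.1 and 53.6 in Fer1 (log2 fold change -0.39, adjusted p = 0.682) and was lowest in the live samples of replicate 3. Ccnd2 had 237 and 149 CPM in medium and 25.6 to 259 in the live samples (log2 fold change 0.06, adjusted p = 0.951). Csf1r, the receptor for M-CSF, had 4669.7 and 3701 CPM in medium, 2244, 2263 and 1671 in ctrl and 2393, 2754 and 4449 in Fer1 and did not pass (log2 fold change -0.85 ± 0.33, adjusted p = 0.117). Of 7 tested genes for receptors and ligands of the colony-stimulating factors, 0 were higher and 1 was lower. This was Csf3r, the receptor for G-CSF, with 67.7 and 52.8 CPM in medium and 15.8 to 43.2 in the live samples (log2 fold change -1.50 ± 0.37, adjusted p = 0.0173). The macrophages' own transcript for M-CSF, Csf1, had 16.001 and 5.45 CPM in medium and 4.31 to 8.73 in the live samples (log2 fold change -0.32, adjusted p = 0.589). The list of G1 regulators had 4 and 2 higher members without medium replicates 1 and 2, and no more than 1 without replicate 1 or 2. Mxd1 was not called without the replicate block, nor with either medium sample left out. Cdkn2d, E2f8 and Csf3r were not called when 1 of the medium samples was left out.

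The pathway of cholesterol synthesis rose almost as a whole. The list holds 28 genes for the enzymes from acetyl-CoA to cholesterol and for regulators of the pathway. Of these, 27 were tested, 21 were higher in the live samples and 0 lower, and the median log2 fold change was 1.70. The 6 that did not pass were Ebp, Ggps1, Mvk, Scap, Srebf2 and Tm7sf2. Hmgcs1, which makes HMG-CoA for the pathway, is shown with its promoter (chr13:119690101-119690400, plus strand) because that holds the letters of a sterol regulatory element, the site of SREBP. The letters searched were TCACNCCAC on either strand, in capitals below. Of 20 members with a promoter in the RefSeq table it was the 1 that held them (5%), against 1.44% of all promoters.
Hmgcs1: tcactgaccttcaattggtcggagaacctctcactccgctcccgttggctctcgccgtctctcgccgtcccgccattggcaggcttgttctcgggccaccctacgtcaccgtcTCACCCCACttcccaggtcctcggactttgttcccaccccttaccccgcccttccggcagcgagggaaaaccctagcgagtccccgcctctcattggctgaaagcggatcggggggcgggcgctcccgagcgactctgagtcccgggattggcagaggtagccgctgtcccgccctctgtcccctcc

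In the live samples Hmgcs1 was 3.31-fold higher (log2 fold change 1.73 ± 0.15, adjusted p = 2.95e-05), with 57.1 and 50.7 CPM in medium, 187, 178 and 84.03 in ctrl and 185, 164 and 99.7 in Fer1. Fdps, farnesyl diphosphate synthase, had 26.2 and 18.5 CPM in medium, 148, 129.9 and 41.5 in ctrl and 143, 135 and 55.3 in Fer1 (log2 fold change 2.63 ± 0.22, adjusted p = 2e-05). Sqle, the squalene epoxidase, had 8.64 and 4.23 CPM in medium, 39.9, 35.5 and 19.5 in ctrl and 37, 39.6 and 14.2 in Fer1 (log2 fold change 2.7 ± 0.31, adjusted p = 0.000127). Acat2, which supplies acetoacetyl-CoA, had the largest change of the list, with 7.62 and 5.01 CPM in medium, 47.3, 44.3 and 11.9 in ctrl and 43.5, 44.01 and 14.8 in Fer1 (log2 fold change 2.79 ± 0.25, adjusted p = 2.95e-05). In all 4 genes the live samples stood above both medium samples and those of replicate 3 were the lowest of the live samples. Other called members were Idi1, Lss, Fdft1, Mvd, Cyp51, Hsd17b7, Stard4, Nsdhl, Msmo1, Tmem97, Sc5d, Dhcr7, Insig1 and Pmvk, which ran from 2.47 to 1.45 on the log2 scale. Insig1 encodes a brake on SREBP and is itself an SREBP target. Summed over the list, the level was 604 and 740 CPM in medium and 991 to 1818 CPM in the live samples. Without the replicate block 9 members passed, and without medium replicate 1 or 2, 19 and 14. Sqle was not called without the replicate block.

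The desaturase genes Scd2, Fads2 and Scd1 had larger fold changes than any sterol gene. Of 30 members of the list for fatty acid synthesis, elongation and desaturation, 28 were tested, 10 were higher and 0 lower, with a median of 0.55. Scd2 (ENSMUSG00000025203, chr19:44293674-44306864, plus strand) is a stearoyl-CoA desaturase that makes monounsaturated fatty acids. It had the largest rise among called genes of at least 5 CPM in the higher arm, predicted genes aside, 34.6-fold in the fit. It had 4.83 and 2.56 CPM in medium, 118, 129 and 20.98 in ctrl and 117, 132 and 20.9 in Fer1, with replicate 3 between medium and the others (log2 fold change 5.11 ± 0.27, adjusted p = 1.23e-06). Fads2, the first desaturase of polyunsaturated fatty acid synthesis, had 2.29 and 2.34 CPM in medium, 48.6, 70.9 and 21.1 in ctrl and 55.5, 64.7 and 20.3 in Fer1 (log2 fold change 4.72 ± 0.26, adjusted p = 1.29e-06). Scd1 (log2 fold change 4.08 ± 0.50, adjusted p = 0.00021), the paralog of Scd2, had 1.27 and 0.334 CPM in medium, 18.3, 12.6 and 0.773 in ctrl and 12.8, 13.2 and 1.21 in Fer1, and its replicate 3 samples overlapped medium. Elovl6, an elongase, had 4.83 and 4.23 CPM in medium, 29.98, 21.5 and 21.4 in ctrl and 24.2, 24.8 and 9.03 in Fer1 (log2 fold change 2.60 ± 0.44, adjusted p = 0.00184). The other called members were Fasn (2.15 on the log2 scale), Aacs (1.66), Mid1ip1 (1.49), Acsl3 (1.46), Fads1 (1.34) and Acaca (1.01), among them fatty acid synthase and acetyl-CoA carboxylase. Counts of called members were 6 without the replicate block and 7 and 9 without medium replicate 1 and 2. Elovl6 was not called without the replicate block, nor when 1 of the medium samples was left out. Scd1 was not called without the replicate block.

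Genes of cholesterol export, which answer to the oxysterol receptors LXR, showed no common rise. Of 18 tested members 0 were higher and 3 lower, with a median of -0.18. Nr1h3, which encodes LXRα itself, had 21.7 and 19.5 CPM in medium and 3.32 to 8.81 in the live samples (log2 fold change -2.42 ± 0.24, adjusted p = 5.76e-05). The apolipoprotein gene Apoc1 had 8.13 and 6.34 CPM in medium and 0.905 to 3.63 in the live samples (log2 fold change -1.85 ± 0.40, adjusted p = 0.00857). Plin2, which coats lipid droplets, was lower by the smallest margin (log2 fold change -1.04 ± 0.25, adjusted p = 0.0149). The exporters Abca1 (log2 fold change -0.18, adjusted p = 0.704) and Abcg1 (-0.19, adjusted p = 0.738) did not pass. Of 26 genes described for lipid-associated macrophages, 3 were higher, Spp1, Vim and Fabp5, and 3 lower, Lpl, Mmp12 and Plin2. Lpl, lipoprotein lipase, was the most abundant gene that fell, with 4308 and 4515 CPM in medium, 1429, 1343 and 1819.6 in ctrl and 1458, 1599.5 and 1548 in Fer1 (log2 fold change -1.64 ± 0.23, adjusted p = 0.000486). Fabp5, a fatty acid carrier, had 229 and 187 CPM in medium and 296 to 631 in the live samples (log2 fold change 1.3 ± 0.28, adjusted p = 0.00746). The glycoprotein gene Gpnmb had 2942 and 3237 CPM in medium and 1781 to 2598 in the live samples, below the threshold on the fold change (-0.74 on the log2 scale). Lpl and Fabp5 did not overlap between medium and the live samples. Apoc1 was not called without the replicate block, nor when 1 of the medium samples was left out. Plin2 and Fabp5 were not called when 1 of the medium samples was left out. Plin2 was also not called with unscaled total counts, with the 8 samples alone or without the 4OHT samples.

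Spp1, osteopontin, a secreted protein that binds integrins, was the most abundant gene that rose. It had 112 and 163 CPM in medium, 2288, 2168 and 355 in ctrl and 1983, 2606 and 228 in Fer1 (log2 fold change 3.95 ± 0.45, adjusted p = 0.00013). The live samples of replicates 1 and 2 stood far above medium, and those of replicate 3 only a little above it. Vim, vimentin, an intermediate filament, had 534 and 523 CPM in medium and 828 to 1517 in the live samples (log2 fold change 1.33 ± 0.30, adjusted p = 0.011). Tgfbi, a matrix protein induced by TGF-beta, had 220.1 and 252 CPM in medium, 915, 769 and 588 in ctrl and 877, 937 and 579.6 in Fer1 (log2 fold change 1.92 ± 0.17, adjusted p = 2.95e-05). Itga6, an integrin that binds laminin, had 304 and 369 CPM in medium and 524 to 815 in the live samples (log2 fold change 1.23 ± 0.16, adjusted p = 0.000338). Vim was not called without the replicate block, nor when 1 of the medium samples was left out. Spp1 was not called without the replicate block.

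Transcripts for the MHC class II chains and the invariant chain, which present antigen to T cells, were lower in the live samples. Of 16 members of the list 15 were tested, 0 were higher and 7 lower, and the median was -1.10. The 7 were H2-Eb1 (-3.50), H2-Ab1 (-3.37), Cd74 (-3.32), H2-Aa (-3.31), Ciita (-2.39), H2-DMb1 (-1.14) and H2-DMa (-1.10). The first 4 code for the MHC class II chains and the invariant chain, Ciita for their master regulator, and the last 2 for the exchange factor H2-DM. The regulators Rfx5, Rfxank and Rfxap and the protease gene Ctss did not pass. MHC class II promoters share a set of boxes, of which the Y box (CTGATTGG on either strand) binds NF-Y. These letters were found in 4 of 12 promoters of the list in the table (33.3%), against 4.7% of all promoters. The 4 were those of H2-Aa, H2-Eb1, H2-Eb2 and H2-Oa, of which only H2-Aa and H2-Eb1 were among the 7 lower genes. The letters are in capitals in the promoter of H2-Aa (chr17:34287774-34288073, minus strand), which encodes the alpha chain.
H2-Aa: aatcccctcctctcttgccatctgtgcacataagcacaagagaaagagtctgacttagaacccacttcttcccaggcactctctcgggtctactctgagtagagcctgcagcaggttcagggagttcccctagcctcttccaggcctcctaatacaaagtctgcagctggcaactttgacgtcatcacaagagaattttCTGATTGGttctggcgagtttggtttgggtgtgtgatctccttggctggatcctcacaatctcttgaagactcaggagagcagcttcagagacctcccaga

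H2-Aa had 318 and 199 CPM in medium, 24.6, 27.9 and 57.6 in ctrl and 29.2, 23.8 and 105 in Fer1. The fit gave a 9.92-fold lower level in the live samples (log2 fold change -3.31 ± 0.30, adjusted p = 2.95e-05). H2-Ab1, the beta chain, had 381 and 257 CPM in medium, 32.1, 34.2 and 76.7 in ctrl and 28.8, 29.8 and 107 in Fer1 (log2 fold change -3.37 ± 0.28, adjusted p = 2.14e-05). H2-Eb1, of the other class II pair, had 236 and 138 CPM in medium, 13.4, 22.4 and 37.8 in ctrl and 17.1, 16.3 and 70.1 in Fer1 (log2 fold change -3.50 ± 0.32, adjusted p = 3.39e-05). Cd74, the invariant chain, fell from 949 and 721 CPM in medium to between 68.5 and 249 CPM (log2 fold change -3.32 ± 0.19, adjusted p = 1.61e-06). In all 4 genes the groups did not overlap and the live samples of replicate 3 were the highest of the live samples. Without the replicate block 4 of the 7 passed. Of 9 tested genes for costimulation and checkpoints, 1 was higher, Cd276, and 3 were lower. Cd274, which encodes PD-L1, had 81.3 and 40.7 CPM in medium, 22.3, 8.24 and 20.9 in ctrl and 20.04, 12.2 and 16.4 in Fer1 (log2 fold change -1.99 ± 0.17, adjusted p = 2.14e-05). Cd40 had 42.4 and 18.2 CPM in medium and 3.64 to 9.52 in the live samples (log2 fold change -1.88 ± 0.28, adjusted p = 0.000816). Cd86 had 28.1 and 21.4 CPM in medium and 5.62 to 11.5 in the live samples (log2 fold change -1.39 ± 0.28, adjusted p = 0.00497). Cd276, B7-H3, had 1.65 and 2.22 CPM in medium and 4.64 to 10.6 in the live samples (log2 fold change 2.21 ± 0.37, adjusted p = 0.00158). Cd80 had 0.508 and 1.22 CPM in medium and 0.794 to 2.98 in the live samples and did not pass (log2 fold change 0.32, adjusted p = 0.789). Cd40 and Cd86 were not called when 1 of the medium samples was left out.

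Many interferon-stimulated genes were lower in the live samples. Of 43 members, all tested, 18 were lower and 0 higher, with a median of -0.83, against 4.27% lower among all genes. The 18 included Gbp2 (-2.14), Rsad2 (-2.05), Mx1 (-1.94), Ifit3 (-1.77), Mx2 (-1.67), Cmpk2 (-1.65), Oasl1 (-1.63), Gbp3 (-1.62), Gbp7 (-1.56), Ifit2 (-1.56), Isg20 (-1.43), Irf7 (-1.39), Irf1 (-1.3), Ifi204 (-1.25), Ifi44 (-1.17), Ifi47 (-1.15) and Igtp (-1.14). They include antiviral effectors such as the Mx, Ifit and Gbp proteins and the transcription factors Irf7 and Irf1. Letters of the interferon-stimulated response element, GAAANNGAA on either strand, were found in 19 of 32 promoters of the list (59.4%), against 9.76% of all promoters. That of Rsad2 (chr12:26456403-26456702, minus strand), the gene for the antiviral enzyme viperin, is shown with the match in capitals.
Rsad2: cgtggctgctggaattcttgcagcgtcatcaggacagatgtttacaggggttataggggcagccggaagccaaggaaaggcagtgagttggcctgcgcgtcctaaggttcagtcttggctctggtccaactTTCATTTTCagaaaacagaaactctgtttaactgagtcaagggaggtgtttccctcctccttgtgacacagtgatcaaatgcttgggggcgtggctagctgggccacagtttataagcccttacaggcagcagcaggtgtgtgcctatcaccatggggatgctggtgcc

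Rsad2 had 2842 and 1364 CPM in medium, 744, 290.0 and 143 in ctrl and 596, 346 and 195 in Fer1 (log2 fold change -2.05 ± 0.22, adjusted p = 8.43e-05), without overlap between the arms. Gbp2, a guanylate-binding protein, had 341 and 180.4 CPM in medium, 68.6, 41.3 and 27.2 in ctrl and 68.9, 42.6 and 33.8 in Fer1 (log2 fold change -2.14 ± 0.21, adjusted p = 5.39e-05). Mx1 had 371 and 221 CPM in medium, 104, 55.7 and 15.7 in ctrl and 91.8, 56.8 and 28.7 in Fer1 (log2 fold change -1.94 ± 0.25, adjusted p = 0.000353). Ifit3 had 1565 and 1028 CPM in medium and 78.8 to 467 in the live samples (log2 fold change -1.77 ± 0.30, adjusted p = 0.00174). Ifit2 had 464 and 385 CPM in medium and 32.1 to 200.1 in the live samples (log2 fold change -1.56 ± 0.22, adjusted p = 0.000625). Ifit1 had 1005 and 686 CPM in medium, 315, 225 and 322 in ctrl and 327, 288 and 99.8 in Fer1 and did not pass (log2 fold change -1.18 ± 0.55, adjusted p = 0.191), with sample Fer1 3 far below the other live samples. In Rsad2, Gbp2, Mx1, Ifit2 and Ifit3 the order over replicates was the same, with replicate 1 above replicate 2 in medium, ctrl and Fer1 and replicate 3 lowest. The summed level of the list was 28098 and 19129 CPM in medium and 5049 to 15091 CPM in the live samples, lowest in the 2 of replicate 3. Without the replicate block 9 of the 43 passed, and without medium replicate 1 or 2, 14 and 11. Among the most abundant genes that fell were also Mndal and Ifi203, interferon-inducible genes of 1 family whose reads counting could have split. Mndal had 2857 and 2331 CPM in medium and 629 to 1381 in the live samples (log2 fold change -1.15 ± 0.18, adjusted p = 0.00116). Ifi203 had 2340.4 and 1759 CPM in medium and 468 to 1072 in the live samples (log2 fold change -1.13 ± 0.24, adjusted p = 0.00698). Ifi205 of the same family had 128 and 50.3 CPM in medium, 10.1, 4.12 and 3.53 in ctrl and 5.85, 4.902 and 2.53 in Fer1 (log2 fold change -3.70 ± 0.25, adjusted p = 4.49e-06). The interferon-inducible GTPase gene Tgtp1, which has a near-identical neighbour and is uncertain for that reason, had 11.9 and 4.45 CPM in medium and 0 to 1.71 in the live samples (log2 fold change -4.18 ± 0.86, adjusted p = 0.00922). Transcripts of MHC class I and its peptide loading moved less: of 21 tested members 0 were higher and 0 lower, with a median of -0.37. Neither B2m (-0.19 on the log2 scale, adjusted p = 0.759) nor H2-K1 (-0.33, adjusted p = 0.184) passed. Ifi203 was not called without the replicate block, nor when 1 of the medium samples was left out. Ifit3 and Ifit2 were not called without the replicate block. Mndal and Tgtp1 were not called when 1 of the medium samples was left out. Tgtp1 was also not called with DESeq2.

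Il1b, which encodes the precursor of interleukin-1β, an inflammatory cytokine, was among the 10 with the largest fall of the called genes of at least 5 CPM in the higher arm, predicted genes aside. It had 37.3 and 52.6 CPM in medium, 2.63, 2.92 and 17.1 in ctrl and 2.28, 3.13 and 10.4 in Fer1. The fit gave a 14.3-fold lower level (log2 fold change -3.84 ± 0.36, adjusted p = 4.08e-05). The live samples of replicate 3 were above those of replicates 1 and 2 and below medium. Of 18 tested genes of interleukin-1 and the inflammasome, 0 were higher and 3 lower. Mefv, which encodes pyrin, had 4.19 and 5.34 CPM in medium and 0.521 to 4.74 in the live samples (log2 fold change -2.09 ± 0.47, adjusted p = 0.0107), and its live samples of replicate 3 overlapped medium. Il18bp, the decoy for interleukin-18, had 56.9 and 39.6 CPM in medium and 5.63 to 22.6 in the live samples (log2 fold change -1.65 ± 0.29, adjusted p = 0.00261). Of 41 cytokine and growth factor genes 28 were tested, 4 were higher and 8 lower, with a median of -0.48. Beside Spp1, the higher ones were Gdf15 (1.77), Vegfb (1.75) and Pdgfa (1.25) on the log2 scale. The lower ones were Bmp2 (-4.92), Tgfb3 (-3.37), Pdgfb (-2.10), Tnfsf10 (-1.82), Il10 (-1.81), Inhba (-1.70), Tnf (-1.66) and Il15 (-1.06). Bmp2, a ligand of the BMP pathway, had 24.4 and 20.7 CPM in medium, 0.101, 0.905 and 1.55 in ctrl and 0.893, 0.313 and 0.991 in Fer1 (log2 fold change -4.92 ± 0.47, adjusted p = 4.36e-05). Tgfb3 had 6.604 and 5.45 CPM in medium, 0.8104, 0.603 and 1.104 in ctrl and 0.595, 0.313 and 0.771 in Fer1 (log2 fold change -3.37 ± 0.36, adjusted p = 9.11e-05). Pdgfb had 45.2 and 48.3 CPM in medium and 8.34 to 38.9 in the live samples (log2 fold change -2.10 ± 0.19, adjusted p = 2.95e-05), with the replicate 3 samples close to medium. Tnf, the classical inflammatory cytokine of macrophages, had 23.6 and 13.3 CPM in medium, 4.05, 10.6 and 2.76 in ctrl and 8.13, 6.05 and 4.85 in Fer1 (log2 fold change -1.66 ± 0.47, adjusted p = 0.0352). The 13 cytokine genes below the filter on low counts included Il6, Il12a, Il12b, Il23a, Il33, Ifnb1, Csf2 and Csf3, in which a change was not detectable at this depth. Mefv and Tnf were not called without the replicate block, nor when 1 of the medium samples was left out. Pdgfb was not called without the replicate block. Il18bp was not called when 1 of the medium samples was left out.

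Chemokines moved both ways. Of 21 tested, 4 were higher and 3 lower. The monocyte chemoattractants Ccl8, Ccl7 and Ccl2 and the gene Pf4 were higher, and Cxcl10, Ccl5 and Cxcl2 were lower. Ccl8 had 0.254 and 0.334 CPM in medium, 16.5, 5.33 and 0.331 in ctrl and 13.99, 4.902 and 0.881 in Fer1 (log2 fold change 4.8 ± 0.76, adjusted p = 0.00112). Replicate 1 was highest and replicate 3 overlapped medium, where the gene had 5 counts over both samples. Per library its counts were 26.4-fold higher (exact 95% counting interval 11.2 to 81.7). Ccl7 had 2.16 and 0.445 CPM in medium, 6.99, 8.14 and 2.43 in ctrl and 4.66, 5.63 and 0.661 in Fer1 (log2 fold change 2.39 ± 0.56, adjusted p = 0.0136). Ccl2 had 8.001 and 1.001 CPM in medium, 11.95, 24.2 and 3.09 in ctrl and 20.7, 12.1 and 0.881 in Fer1 (log2 fold change 2.23 ± 0.59, adjusted p = 0.0263). Both Ccl7 and Ccl2 overlapped between the arms. Cxcl10, a chemokine induced by interferon, had 484 and 174 CPM in medium, 81.7, 32.5 and 42.6 in ctrl and 80.2, 35.7 and 37.999 in Fer1 (log2 fold change -2.37 ± 0.36, adjusted p = 0.000888). Without the replicate block 1 of the 4 higher and 1 of the 3 lower chemokines passed. Of 18 tested chemoattractant receptors, 2 were higher and 2 lower. Ccr1, a receptor for several CC chemokines, had 4.06 and 3.11 CPM in medium, 21.6, 24.3 and 50.7 in ctrl and 20.2, 22.6 and 16.4 in Fer1 (log2 fold change 2.82 ± 0.51, adjusted p = 0.00288). S1pr1, for sphingosine 1-phosphate, had 20.4 and 37.05 CPM in medium and 53.5 to 108 in the live samples (log2 fold change 1.26 ± 0.32, adjusted p = 0.0196). The formyl peptide receptors were lower. Fpr2 had 30.1 and 23.8 CPM in medium and 3.86 to 5.26 in the live samples (log2 fold change -2.62 ± 0.40, adjusted p = 0.000968), and Fpr1 moved likewise (log2 fold change -2.09 ± 0.39, adjusted p = 0.00352). Ccr2, the receptor for Ccl2, did not pass (log2 fold change -0.09, adjusted p = 0.93). Ccl8, Ccl7 and Ccl2 were not called without the replicate block, nor when 1 of the medium samples was left out. Ccl2 was also not called with the 8 samples alone or without the 4OHT samples. Ccr1, S1pr1 and Fpr1 were not called when 1 of the medium samples was left out.

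Among scavenger receptors and lectins of the myeloid surface, more genes fell than rose. Of 28 tested members 9 were lower and 3 higher, with a median of -0.53. Marco, a scavenger receptor for bacteria and particles, had 8.001 and 12.1 CPM in medium, 0.506, 0.503 and 2.098 in ctrl and 0.198, 0.626 and 2.203 in Fer1 (log2 fold change -4.29 ± 0.50, adjusted p = 0.000164). Clec7a, the β-glucan receptor dectin-1, had 776 and 968 CPM in medium, 105, 106 and 233 in ctrl and 119.6, 88.4 and 265 in Fer1 (log2 fold change -3.09 ± 0.18, adjusted p = 1.61e-06), and the groups did not overlap. Clec4a1 had 519.8 and 398 CPM in medium and 97.2 to 289 in the live samples (log2 fold change -2.01 ± 0.32, adjusted p = 0.00118). The other lower members were Clec2d (-1.79), Fcgr4 (-1.52), Clec4a3 (-1.50), Cd300a (-1.48), Clec4n (-1.34) and Clec4a2 (-1.28). Clec4a1, Clec4a2, Clec4a3 and Clec4n are neighbours in 1 gene family. Against these, Mrc1, the mannose receptor, was higher, with 117 and 122 CPM in medium, 434, 518 and 827 in ctrl and 446, 483 and 507 in Fer1 (log2 fold change 2.12 ± 0.29, adjusted p = 0.000497), and so were Cd5l (1.28) and Clec5a (1.13). Msr1, scavenger receptor A, had 195 and 203 CPM in medium and 96.04 to 177 in the live samples and did not pass (log2 fold change -0.35, adjusted p = 0.398). Of the 9 lower members, 4 passed without the replicate block. Mrc1 also stands in a list of genes of alternative activation, the program that interleukin-4 induces, in which it was the 1 higher member of 16 tested. In that list 5 were lower, Flt1 (-2.42), Socs1 (-1.96), Socs2 (-1.71), Irf4 (-1.61) and Ptgs1 (-1.14). Flt1, a VEGF receptor, had 33.1 and 19.02 CPM in medium and 1.88 to 7.14 in the live samples (log2 fold change -2.42 ± 0.20, adjusted p = 2.23e-05). The inhibitors of cytokine signalling Socs1 and Socs2 had 8.38 and 4.34 CPM in medium and 0.551 to 2.43 in the live samples (log2 fold change -1.96 ± 0.39, adjusted p = 0.00543) and 5.97 and 4.34 CPM in medium and 1.21 to 2.18 in the live samples (log2 fold change -1.71 ± 0.37, adjusted p = 0.00857). Clec4a1, Socs1 and Socs2 were not called when 1 of the medium samples was left out.

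Of 17 tested genes for the uptake of dead cells, 2 were higher (11.8%) and 1 lower (5.88%). Gas6, the bridging ligand between dead cells and the receptors Mertk and Axl, had 104 and 104 CPM in medium, 274, 413 and 574 in ctrl and 417, 391 and 178 in Fer1 (log2 fold change 2.24 ± 0.68, adjusted p = 0.0488). The integrin gene Itgb3 had 1.78 and 4.12 CPM in medium and 3.75 to 10.1 in the live samples (log2 fold change 1.27 ± 0.29, adjusted p = 0.0114). Thbs1, thrombospondin-1, had 74.7 and 84.1 CPM in medium, 21.4, 17.5 and 28.3 in ctrl and 22.7, 14.9 and 26.8 in Fer1 (log2 fold change -1.96 ± 0.36, adjusted p = 0.00321). Mertk had 158 and 147 CPM in medium and 91.5 to 142 in the live samples, below the threshold on the fold change (log2 fold change -0.74 ± 0.18, adjusted p = 0.0166). Axl had 274 and 227 CPM in medium and 46.5 to 168 in the live samples (log2 fold change -0.95 ± 0.33, adjusted p = 0.0777). Gas6 and Itgb3 were not called without the replicate block, nor when 1 of the medium samples was left out. Thbs1 was not called when 1 of the medium samples was left out.

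Id3, a target gene of BMP signalling that encodes an inhibitor of basic helix-loop-helix factors, was 28.8-fold lower in the live samples (log2 fold change -4.85 ± 0.33, adjusted p = 4.49e-06). The gene (ENSMUSG00000007872, chr4:136143497-136145755, plus strand) had 286 and 216 CPM in medium, 5.57, 5.33 and 24.6 in ctrl and 9.03, 10.8 and 14.3 in Fer1, and no live sample came near medium. Of 33 tested genes of TGF-beta and BMP signalling and the Id family, 6 were lower and 2 higher, with a median of -0.32. Smad6, an inhibitor that BMP induces, had 6.096 and 8.12 CPM in medium, 0.405, 0.603 and 2.43 in ctrl and 0.893, 1.04 and 2.09 in Fer1 (log2 fold change -3.04 ± 0.42, adjusted p = 0.000503). Id1 had 9.398 and 10.2 CPM in medium, 1.32, 2.92 and 3.31 in ctrl and 2.38, 1.88 and 2.64 in Fer1 (log2 fold change -2.22 ± 0.56, adjusted p = 0.0196). Lower members also included Sox9 (-2.17) and Ltbp1 (-1.67), and the higher ones were Tgfbi and Bhlhe40 (1.51). Id2 had 468 and 524 CPM in medium and 204 to 397 in the live samples and did not pass (log2 fold change -0.49, adjusted p = 0.211). The receptors and signal transducers of the list, such as Bmpr2, Tgfbr1, Smad1 and Smad4, did not pass. The ligand gene Bmp2, described above, and the BMP targets Id3, Id1 and Smad6 were all lower in the live samples. Without medium replicate 1 or 2, 3 of the 6 lower members passed in each case. Id1 was not called when 1 of the medium samples was left out.

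Immediate early genes, which growth and stress signals induce within minutes, fell more often than they rose at 24 h. Of 25 tested members 9 were lower and 1 higher, with a median of -0.99. The lower ones were Egr1 (-2.64), Nr4a2 (-2.60), Dusp2 (-2.27), Fos (-2.15), Dusp1 (-1.61), Zfp36 (-1.42), Dusp5 (-1.4), Egr2 (-1.36) and Klf2 (-1.06). The higher one was Dusp6 (1.67), a phosphatase that ERK signalling induces. Fos had 38.4 and 53.8 CPM in medium, 8.104, 12.4 and 27.7 in ctrl and 11.3, 8.66 and 21.1 in Fer1 (log2 fold change -2.15 ± 0.26, adjusted p = 0.000177). Egr1 had 4.06 and 5.01 CPM in medium, 0.203, 0.603 and 1.104 in ctrl and 2.08, 0.521 and 2.86 in Fer1 (log2 fold change -2.64 ± 0.48, adjusted p = 0.00295). Nr4a2, an orphan nuclear receptor, had 5.84 and 6.897 CPM in medium and 0.834 to 1.52 in the live samples (log2 fold change -2.60 ± 0.38, adjusted p = 0.000742). Dusp2, a phosphatase of MAP kinases, had 7.75 and 4.12 CPM in medium and 0.834 to 4.19 in the live samples (log2 fold change -2.27 ± 0.41, adjusted p = 0.00298). Of the 9 lower members, 5 passed without the replicate block. Of 21 tested NF-κB subunits and inhibitors, 1 was lower (4.76%, near the 4.27% of all genes tested) and 0 were higher. The median of the list was -0.58. The lower one, Nfkbiz, had 73.1 and 55.5 CPM in medium and 16.2 to 38.98 in the live samples (log2 fold change -1.32 ± 0.21, adjusted p = 0.00129). The subunit genes Nfkb1 (log2 fold change -0.52, adjusted p = 0.296) and Nfkb2 (-0.68, adjusted p = 0.00944) did not pass. Of 23 Toll-like receptors and adapters, 2 were lower (8.7%). The adapter kinase gene Irak2 had 117 and 74.1 CPM in medium and 33.2 to 58.5 in the live samples (log2 fold change -1.28 ± 0.18, adjusted p = 0.000546). Ly86, which encodes MD-1, had 122 and 117 CPM in medium and 36.9 to 59.6 in the live samples (log2 fold change -1.26 ± 0.21, adjusted p = 0.00151). The receptor genes Tlr1 (log2 fold change -0.71, adjusted p = 0.0377) and Tlr2 (-0.34, adjusted p = 0.412) were not called. Egr1 and Dusp2 were not called without the replicate block, nor when 1 of the medium samples was left out. Fos was not called without the replicate block.

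Of 12 tested genes around the aryl hydrocarbon receptor, 3 were lower and 0 higher. Ahrr, the repressor that the receptor induces, had 23.7 and 26.4 CPM in medium, 4.15, 3.82 and 39.3 in ctrl and 6.45, 2.09 and 26.5 in Fer1 (log2 fold change -2.45 ± 0.42, adjusted p = 0.00187). Its live samples of replicates 1 and 2 were far below medium and those of replicate 3 at or above it. Il4i1, an amino acid oxidase that makes ligands of the receptor, had 2.03 and 2.22 CPM in medium and 0.201 to 1.54 in the live samples (log2 fold change -2.42 ± 0.47, adjusted p = 0.00475). Lpar6, a receptor for lysophosphatidic acid, had 275 and 308 CPM in medium, 114, 106 and 235 in ctrl and 121, 112 and 251 in Fer1 (log2 fold change -1.31 ± 0.15, adjusted p = 0.000127). The receptor gene Ahr itself had 1.52 and 2.56 CPM in medium and 2.61 to 11.9 in the live samples and did not pass (log2 fold change 0.91, adjusted p = 0.29). Ahrr and Il4i1 were not called without the replicate block, nor when 1 of the medium samples was left out. Lpar6 was not called without the replicate block.

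Among matrix proteases and the plasminogen system, nearly every called gene was lower. Of 25 tested members 10 were lower and 1 higher, Mmp27 (2.19), with a median of -0.63. The collagenase gene Mmp13 had 109.7 and 86.4 CPM in medium, 16.4, 9.75 and 29.2 in ctrl and 13.7, 11.06 and 16.3 in Fer1 (log2 fold change -2.75 ± 0.31, adjusted p = 0.000124). Mmp9, a gelatinase, had 1.397 and 0.88997 CPM in medium and 0.101 to 0.771 in the live samples (log2 fold change -3.06 ± 0.71, adjusted p = 0.0128). Adam19 had 2.67 and 3.45 CPM in medium and 0.0992 to 1.54 in the live samples (log2 fold change -3.88 ± 0.66, adjusted p = 0.00193). Serpinb2, an inhibitor of plasminogen activators, had 1.02 and 0.556 CPM in medium and 0 to 0.552 in the live samples (log2 fold change -3.91 ± 0.95, adjusted p = 0.0159). All 3 were near the count limit in live samples of replicates 1 and 2. Serpinb2 and Mmp9 were low in medium as well, where the limit was 0.381 and 0.334 CPM. The highest live value of Serpinb2 nearly reached medium replicate 2. Lower members also included Timp3 (-1.65), Mmp25 (-1.32), Plaur (-1.31), Mmp14 (-1.21) and Mmp12 (-1.08). Mmp2 had 2.03 and 0.667 CPM in medium and 0 to 3.41 in the live samples and did not pass (log2 fold change -2.45 ± 0.97, adjusted p = 0.124). The list had 2 lower members without the replicate block, 4 with either medium sample left out, 1 without replicate 1, 2 without replicate 2 and 8 without replicate 3. It had 8 to 10 under the other settings, DESeq2 included. Of 22 tested genes of matrix and adhesion, 8 were lower and 1 higher, Itga6. Itgal, the alpha chain of the leukocyte integrin LFA-1, had 146 and 167 CPM in medium, 25.6, 27.4 and 51.2 in ctrl and 28.5, 24.8 and 58.8 in Fer1 (log2 fold change -2.57 ± 0.17, adjusted p = 4.49e-06). Fn1, fibronectin, had 26.2 and 10.1 CPM in medium, 10.1, 2.41 and 20.2 in ctrl and 6.05, 4.69 and 31.8 in Fer1 (log2 fold change -1.58 ± 0.31, adjusted p = 0.00448), and its live samples of replicate 3 overlapped medium. Tnc, tenascin C, had 9.14 and 3.78 CPM in medium and 0.608 to 2.68 in the live samples (log2 fold change -2.45 ± 0.48, adjusted p = 0.00463). Vcan, versican, had 14.1 and 16.4 CPM in medium and 2.31 to 8.94 in the live samples (log2 fold change -2.00 ± 0.35, adjusted p = 0.00218). Hspg2, perlecan, had 2.67 and 0.779 CPM in medium and 0.101 to 1.101 in the live samples (log2 fold change -2.68 ± 0.65, adjusted p = 0.0159). Mmp9, Serpinb2, Fn1, Tnc and Hspg2 were not called without the replicate block, nor when 1 of the medium samples was left out. Adam19 was not called without the replicate block. Vcan was not called when 1 of the medium samples was left out.

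Of 18 tested genes for prostaglandins and other eicosanoids, 3 were higher and 2 lower. The higher ones act in leukotriene synthesis, Pla2g4a as the phospholipase that frees arachidonic acid, Alox5 as 5-lipoxygenase and Ltc4s as leukotriene C4 synthase. Alox5 had 2.03 and 2.78 CPM in medium, 16.5, 26.4 and 15.1 in ctrl and 14.98, 24.2 and 17.1 in Fer1, 8.69-fold higher in the live samples and without overlap (log2 fold change 3.12 ± 0.41, adjusted p = 0.000379). Ltc4s had 5.33 and 8.79 CPM in medium, 23.7, 43.02 and 16.1 in ctrl and 30.3, 33.6 and 23.7 in Fer1 (log2 fold change 2.23 ± 0.37, adjusted p = 0.00164). Pla2g4a had 7.75 and 11.6 CPM in medium, 32.3, 34.9 and 12.5 in ctrl and 21.9, 38.1 and 11.5 in Fer1 (log2 fold change 1.65 ± 0.36, adjusted p = 0.00959), and its lowest live sample lay below medium replicate 2. The lower ones were Ptgs1, cyclooxygenase 1 of prostaglandin synthesis, and Ptger4 (-1.11), a receptor for prostaglandin E2. Ptgs1 had 100.3 and 144 CPM in medium, 47.001, 55.5 and 213 in ctrl and 38.98, 62.2 and 152 in Fer1 (log2 fold change -1.14 ± 0.27, adjusted p = 0.0147). Its live samples were below medium in replicates 1 and 2 and above both medium samples in replicate 3. Pla2g4a and Ptgs1 were not called without the replicate block, nor when 1 of the medium samples was left out.

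Metabolic lists other than sterols and fatty acids held few called genes. Of 30 tested genes of the amino acid response, 4 were higher and 0 lower, with a median of 0.44. The enzymes that make serine account for 3 of the 4. Phgdh had 2.29 and 0.779 CPM in medium and 1.33 to 9.85 in the live samples (log2 fold change 2.06 ± 0.61, adjusted p = 0.0435). Psat1 had 5.08 and 5.12 CPM in medium and 7.398 to 17.7 in the live samples (log2 fold change 1.58 ± 0.29, adjusted p = 0.00291). Psph had 2.54 and 3.11 CPM in medium and 3.08 to 7.04 in the live samples (log2 fold change 1.11 ± 0.34, adjusted p = 0.0492). The other was Mthfd1l (log2 fold change 1.17 ± 0.32, adjusted p = 0.0312) of mitochondrial folate metabolism. The stress regulators Atf4 (log2 fold change 0.31, adjusted p = 0.319) and Ddit3 (-0.38, adjusted p = 0.227) did not pass. Of 37 tested genes of glycolysis and the hypoxia response 1 was higher (2.7%), and the median was 0.35. This was the aldolase gene Aldoc, with 20.4 and 21.5 CPM in medium and 40.3 to 77.8 in the live samples (log2 fold change 1.64 ± 0.26, adjusted p = 0.00131). The glucose transporter gene Slc2a1 (0.90 on the log2 scale, adjusted p = 0.0245) was not called. Of 22 tested genes of iron handling, 1 was higher (4.55%) and 1 lower (4.55%), near the 4.43% and 4.27% of all genes tested. Slc39a8, a metal transporter, had 2.67 and 4.005 CPM in medium and 6.06 to 12.1 in the live samples (log2 fold change 1.66 ± 0.44, adjusted p = 0.0242). Cp, ceruloplasmin, had 40.9 and 31.3 CPM in medium and 5.21 to 10.9 in the live samples (log2 fold change -2.36 ± 0.41, adjusted p = 0.00221). The transferrin receptor gene Tfrc (log2 fold change 0.41, adjusted p = 0.33) and the exporter gene Slc40a1 (-0.87, adjusted p = 0.0128) were not called. In the BCL2 family of 16 tested genes 2 were higher (12.5%) and 1 lower (6.25%). Bcl2l1, which protects from apoptosis, had 31.5 and 35.7 CPM in medium, 84.9, 98.01 and 25.1 in ctrl and 72.7, 81.2 and 31.3 in Fer1 (log2 fold change 1.15 ± 0.35, adjusted p = 0.0462), with the live samples of replicate 3 below both medium samples. Pmaip1, which promotes apoptosis, had 20.1 and 21.7 CPM in medium and 7.24 to 14.4 in the live samples (log2 fold change -1.01 ± 0.27, adjusted p = 0.028). Bik, called higher, was at 0 in both medium samples and at no more than 1.04 CPM in the live samples. Bcl2 had 4.57 and 4.78 CPM in medium and 4.64 to 16.9 in the live samples and did not pass (log2 fold change 1.46 ± 0.57, adjusted p = 0.118). The lists for the lysosome (49 tested), for chaperones of the endoplasmic reticulum (20), for targets of the oxidative stress factor NRF2 (29) and for transcripts of the mitochondrial genome (15) had 0 higher and 0 lower members, with medians of 0.09, 0.09, 0.29 and -0.04. Of 16 tested genes of arginine and polyamine metabolism 1 was lower (6.25%), the transporter gene Slc7a2 (-1.32 on the log2 scale). Phgdh, Psph, Mthfd1l, Slc39a8, Bcl2l1, Pmaip1 and Bik were not called without the replicate block, nor when 1 of the medium samples was left out. Phgdh, Psph and Bik were also not called without the 4OHT samples. Pmaip1 and Bik were also not called without the filter on low counts, and Pmaip1 not with unscaled total counts. Psat1 was not called when 1 of the medium samples was left out.

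Genes of macrophage identity were expressed in every sample. Of 29 tested identity genes 4 were lower (13.8%) and 1 higher (3.45%), with a median of -0.29. The defining marker Adgre1, which encodes F4/80, had 1105 and 1048 CPM in medium, 698, 529 and 958 in ctrl and 701, 525 and 756 in Fer1, below the threshold on the fold change (log2 fold change -0.80 ± 0.15, adjusted p = 0.00332). Itgam, which encodes CD11b, had 511 and 602 CPM in medium, 677, 636 and 939.7 in ctrl and 622, 651 and 654 in Fer1 (log2 fold change 0.23 ± 0.15, adjusted p = 0.367). The lower genes were Nr1h3, the transcription factor genes Cebpa and Irf5 (-1.35), and Aif1, which encodes Iba1. Cebpa had 104 and 105 CPM in medium, 37.7, 36.99 and 82.9 in ctrl and 37.4, 35.8 and 92.4 in Fer1 (log2 fold change -1.48 ± 0.12, adjusted p = 2.14e-05). Aif1 had 679.9 and 472 CPM in medium and 179 to 304 in the live samples (log2 fold change -1.37 ± 0.17, adjusted p = 0.000268). The higher one was the repressor gene Bhlhe41, with 17.9 and 25.5 CPM in medium, 126, 138 and 68.3 in ctrl and 124, 140.0 and 52.5 in Fer1 (log2 fold change 2.56 ± 0.31, adjusted p = 0.000209). Cebpa was not called without the replicate block.

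No tested marker of another cell type was called higher with fibroblast supernatant. Of 29 fibroblast markers 18 were tested, 0 were higher in the live samples and 6 lower. The 6 were Tagln (-2.25), Prrx1 (-1.82), Acta2 (-1.57), Col5a2 (-1.56), Bgn (-1.49) and Sparc (-1.26). The collagen genes Col1a1 and Col1a2 were not called, and Col1a1 had 33.7 and 12.1 CPM in medium, 16.9, 5.83 and 17.2 in ctrl and 22.02, 6.57 and 40.97 in Fer1 (log2 fold change -0.85 ± 0.24, adjusted p = 0.0343). Summed over the 29 genes, the level was 354 and 104 CPM in medium and 46.4 to 354 CPM in the live samples, highest in medium replicate 1 and in sample Fer1 3. The defining markers Dcn, Lum, Pdgfra, Pdgfrb and Thy1 were below the filter on low counts. These genes move with the matrix genes above, and their part in those results was not tested. None of the 6 passed without the replicate block (edgeR). Tagln was not called without medium replicate 1, and Prrx1, Acta2 and Col5a2 were not called with either medium sample left out. Of 15 neutrophil markers 6 were tested and 4 were lower, Ngp, S100a9 (-1.53), S100a8 and Csf3r. Ngp had 3.94 and 7.899 CPM in medium and 0 to 1.81 in the live samples (log2 fold change -2.01 ± 0.44, adjusted p = 0.0096). S100a8 had 15.9 and 21.03 CPM in medium, 6.89, 6.73 and 2.21 in ctrl and 4.96, 6.36 and 2.97 in Fer1 (log2 fold change -1.53 ± 0.27, adjusted p = 0.00274). The summed level of the list was 122 and 127 CPM in medium and 53.0 to 139 CPM in the live samples. Ly6g, Elane and Mpo were below the filter. Of 9 tested monocyte markers 2 were lower, Vcan and Fn1, while Ly6c2 had 1.78 and 1.67 CPM in medium and 0 to 1.15 in the live samples. Of 6 dendritic cell markers 1 was lower, Batf3, with 4.83 and 3.34 CPM in medium and 0.663 to 2.09 in the live samples (log2 fold change -2.21 ± 0.38, adjusted p = 0.00189). Flt3, Zbtb46, Xcr1 and Clec9a were below the filter. Clec9a had up to 18 counts in a medium sample and 0 in every live sample, and the part of such cells in the lower MHC class II level was not tested. Of 3 tested B cell markers and 1 tested marker of erythroid, mast and eosinophil cells 0 were called. Of 12 markers of T and NK cells 0 passed the filter, with a summed level of 0.334 and 0.508 CPM in medium and 0.198 to 1.21 CPM in the live samples. Ngp and S100a9 were not called without the replicate block, nor when 1 of the medium samples was left out. S100a8 and Batf3 were not called when 1 of the medium samples was left out.

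**Figure D4:**
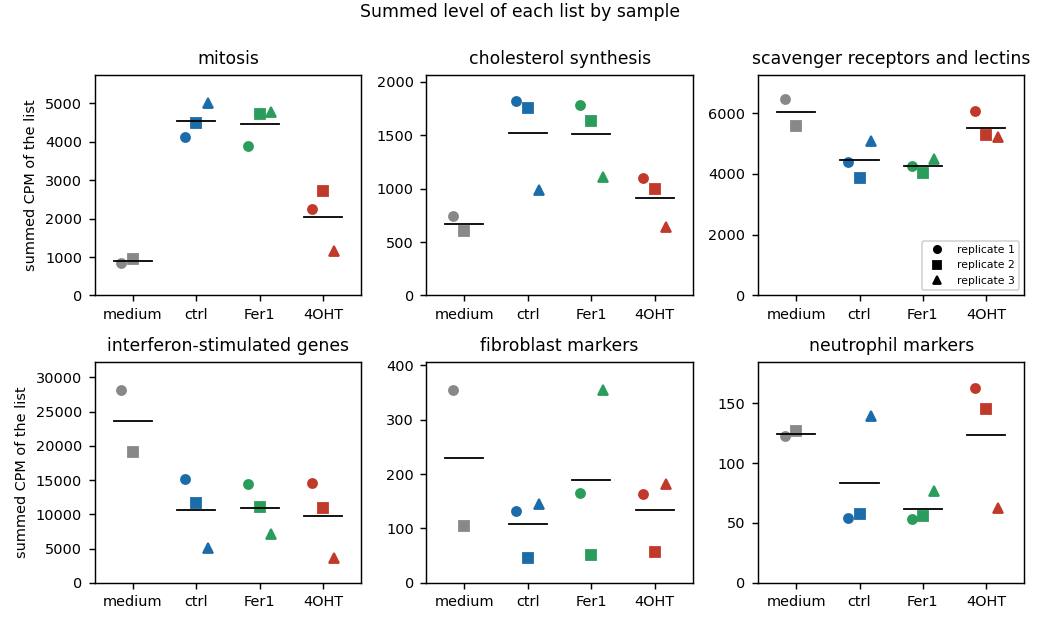
Summed CPM of 6 gene lists (y axes, from 0) in the 2 medium, 3 ctrl, 3 Fer1 and 3 4OHT samples (x axes), with circles, squares and triangles for replicates 1, 2 and 3 and a bar at each group mean. Mitosis rises from at most 943 CPM in medium to at least 3898 CPM in every ctrl and Fer1 sample, interferon-stimulated genes fall from at least 19129 to at most 15091 CPM, and the fibroblast and neutrophil markers overlap between medium and the live samples.

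The remaining genes with the largest changes do not share a list. Slco4a1, an organic anion transporter, had 7.37 and 8.8997 CPM in medium, 149, 201 and 73.98 in ctrl and 179.7, 169.8 and 73.6 in Fer1 (log2 fold change 4.45 ± 0.23, adjusted p = 1.23e-06). Adgre4, an adhesion receptor of macrophages related to F4/80, had the largest fall among called genes of at least 5 CPM in the higher arm, predicted genes aside, with 37.2 and 39.05 CPM in medium, 0.304, 0.804 and 11.2 in ctrl and 0.0992, 0.7301 and 3.08 in Fer1 (log2 fold change -5.59 ± 0.65, adjusted p = 0.000155). Klrk1, which encodes the receptor NKG2D, had 6.98 and 3.78 CPM in medium, 0.101, 0.201 and 0.442 in ctrl and 0.198, 0 and 0 in Fer1 (log2 fold change -5.23 ± 0.73, adjusted p = 0.000511), at or near the count limit in every live sample. Dmpk, a protein kinase, had 24.1 and 29.8 CPM in medium, 1.82, 1.31 and 1.99 in ctrl and 1.59, 1.46 and 4.296 in Fer1 (log2 fold change -4.36 ± 0.46, adjusted p = 8.44e-05). Pou2f2, a transcription factor of lymphoid and myeloid cells, had 1099.6 and 977 CPM in medium, 443, 410.0 and 1407 in ctrl and 494, 444 and 706 in Fer1 (log2 fold change -1.06 ± 0.27, adjusted p = 0.0212), and its ctrl sample of replicate 3 stood above medium. 7SK, a small nuclear RNA that restrains transcription elongation and has no poly(A) tail, is annotated in 330 copies, whose summed level was 155 and 259 CPM in medium and 14.6 to 62.6 CPM in the live samples. The 7SK copy chosen by the rule had a log2 fold change of -3.61 (adjusted p = 0.000628). A small RNA without a tail is not a designed target of a library primed at the poly(A) tail, and how this share relates to RNA or library quality was not tested. With the small and ribosomal RNA genes left out of the fit, a choice made after seeing the data, 1114 genes passed, of which 1099 were among the 1118. Pou2f2 was not called without the replicate block, nor when 1 of the medium samples was left out. It was also not called with unscaled total counts.

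With supernatant of dying fibroblasts (4OHT), the summed level of the mitosis genes, 1154 to 2728 CPM, lay between medium and the live samples. That of the replication genes, 697 to 866 CPM, did so too, its lowest value close to the 692 CPM of medium replicate 2. How many of the called genes lay between was not counted. Against the live samples, 212 genes passed for 4OHT (1.65% of the genes tested), 77 higher and 135 lower, and 60 passed without the replicate block. This comparison uses the same live samples as the comparison with medium, and the values are given side by side only. Of the 48 genes of mitosis 20 were lower in 4OHT than in the live samples and 0 higher. Lower were also 12 of 46 replication genes and 8 of 27 tested sterol genes, while 5 of 15 tested MHC class II genes were higher. Scd2 had 19.5, 14.6 and 3.16 CPM in 4OHT replicates 1, 2 and 3 (log2 fold change -2.85 ± 0.19, adjusted p = 4.91e-05), below each live sample of the same number. Il1b had 37.4, 34.1 and 50.2 CPM in 4OHT (log2 fold change 3.19 ± 0.32, adjusted p = 0.000647), a range that overlaps medium. Id3 had 56.3, 60.8 and 72.5 CPM (log2 fold change 2.59 ± 0.28, adjusted p = 0.00125), between the 2 arms. Cd74 had 466, 246 and 658 CPM (log2 fold change 1.89 ± 0.17, adjusted p = 0.000226). Interferon-stimulated genes did not follow this order: 1 of 43 was called higher in 4OHT and 0 lower, with a median of -0.25 against the live samples. Rsad2 had 817, 319.8 and 103 CPM (log2 fold change -0.10 ± 0.20, adjusted p = 0.931). Mrc1, with 495, 567 and 323 CPM, was not called either (log2 fold change -0.19 ± 0.22, adjusted p = 0.852).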

How the data were processed

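RNA of pBMDMs was sequenced in 14 samples of 5 groups with QuantSeq 3′ libraries, and 8 samples form the comparison described. The deposited values are expected counts per gene, which the authors estimated with STAR 2.7.10a and Salmon 1.5.2. The methods name the human build GRCh38, while the submitters' processing notes also list GRCm38 and the identifiers are mouse genes. GENCODE M21 (GRCm38) gave positions and overlaps for 52133 of 55414 identifiers.

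The deposited expected counts (30109 values were not whole) were rounded. Genes with low counts were filtered with edgeR 4.0.16 (minimum count 10), which left 12851. TMM factors and a quasi-likelihood fit with group and replicate number as terms were used over all 14 samples (7 residual degrees of freedom). The contrast set the mean of ctrl and Fer1 against medium. A gene was called at a Benjamini-Hochberg adjusted p under 0.05 and an absolute log2 fold change above 1, and every adjusted p in the text comes from this fit. Errors of log2 fold changes are standard errors. Depth, 7823051 to 11052352 counts a sample, limits low genes: 3 counts are 0.272 to 0.381 CPM, a limit that covers counting error only. Exact intervals of count ratios are conditional binomial ones. None of the 91 pairs of samples agreed within sampling noise.

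The study's methods had the mouse as a batch term, and the replicate number, which the labels do not tie to a mouse, was kept as a block in its place. Deviations from group means correlated at a median of 0.247 over 26 pairs of samples with the same number (21 above 0.1) and of -0.139 over 52 other pairs.

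Named genes were the 10 with the largest rise and the 10 with the largest fall among called genes of at least 5 CPM in the higher arm, predicted genes left out, that moved the same way in all 4 within-replicate differences, the 5 most abundant called genes in each direction, and up to 4 called genes and the first 2 members of each list. Other called members of a list are named beside its count, and some results are not reported here. The members and the 44 gene lists were chosen with earlier results of these data known. Alternatives were DESeq2 1.42.0, other scalings and filters, fits without the block or with fewer samples, and leaving out single samples or replicates. R 4.3.3, limma 3.58.1, Python 3.11.15 and matplotlib 3.10.9 were used, and the scripts were tested on simulated data.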

Additional observations from a re-analysis of the deposited data

Results flagged for a closer look

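In 13 of 172 named genes, 1 of the 6 live samples stood apart from the other 5 by more than Dixon's 95% critical value for the gap over the range, which chance gives in about 1 of 20 groups. Sample Fer1 3 was low in Abcg1 (46 CPM, others 80.3 to 107), Elovl6 (9.03 CPM, others 21.4 to 30), Ifit1 (99.8 CPM, others 225 to 327) and Kifc1 (8.37 CPM, others 9.95 to 10.4). The same sample was high in Dmpk (4.3 CPM, others 1.31 to 1.99) and Dusp2 (4.19 CPM, others 0.834 to 1.51). Sample ctrl 3 was low in Axl (46.5 CPM, others 126 to 168). It was high in Ccr1 (50.7 CPM, others 16.4 to 24.3), Itgam (940 CPM, others 622 to 677), Mrc1 (827 CPM, others 434 to 518) and Nfkb1 (71.2 CPM, others 34 to 44.3). Of replicate 1, ctrl was low in Cdkn2c (14.8 CPM, others 21.4 to 24.7) and Fer1 was high in Socs2 (2.18 CPM, others 1.21 to 1.46). In 11 of the 13 genes the sample apart was of replicate 3.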

How the results depend on the processing

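Of the called genes named, 137 had a value in most fits, and none changed direction under any alternative. Their calls were kept for 135 with DESeq2, 137 with RLE size factors and 134 with total counts, which moved the median log2 fold change of all genes from -0.01 to 0.10. Fits without all samples of replicate 1 or of replicate 2, which hold 1 medium sample, kept fewer of these calls than any other, and without replicate 2 most were lost. The lists for mitosis, DNA replication, interferon-stimulated genes and immediate early genes also had their fewest called members in these 2 fits. Losses in those 2 fits, without replicate 3 and without single live samples are not named beside single genes above. Bub1, Ccnb1, Alox5, Lpl, Marco, Mrc1 and Nr4a2, for example, were lost only without replicate 2. Gas6 was also lost without ctrl replicate 2 and without each Fer1 sample in turn. Bcl2l1 was also lost without ctrl replicate 1 or 2 and without each Fer1 sample in turn. Tnf was also lost without ctrl replicate 1 and without Fer1 replicate 2 or 3. Pou2f2 was also lost without ctrl replicate 1 or 2 and without Fer1 replicate 1. Without the replicate block 88 of the 137 were kept, and the counts of calls fell from 1118 to 621 for the live samples against medium (604 of them among the 1118), from 1001 to 457 for ctrl, from 927 to 453 for Fer1 and from 212 to 60 for 4OHT against the live samples. At an adjusted p alone, 1765 genes passed for the live samples and 345 for 4OHT, and with DESeq2 334 for 4OHT. Leaving out single samples or all samples of 1 replicate number gave 180 (without replicate 2) to 1230 genes for the live samples, 87 to 1056 for ctrl, 87 to 1038 for Fer1 and 1 to 285 for 4OHT. Fits with all 8 samples alone or without the 4OHT samples, and those with other scalings and filters, kept the count for the live samples within 1.5 times, and the cause of the larger shifts was not tested beyond the fewer samples in the fit. Some uncalled genes turned in direction. Without the block Abca1 had a log2 fold change of 0.024 and Ccnd2 of -0.23, and Ccr2 had 0.0197 with total counts. With samples left out, Abca1 ran from -0.48 to 0.21, Abcg1 from -0.46 to 0.15, Ccnd1 from -0.83 to 0.0256, Ccnd2 from -0.38 to 0.48, Ccr2 from -0.37 to 0.36, Cd80 from -0.17 to 1.12 and Csf1 from -0.86 to 0.28. Between Fer1 and ctrl 1 gene, Gm4767, passed without ctrl replicate 3. Counts over the gene lists stayed within 1.5 times in 891 cases and moved further in 275. The fit with ctrl and Fer1 as 1 group gives no value for either alone, and fits of 8 samples or without the 4OHT samples give none for 4OHT. The fits without small and ribosomal RNA, those without the 4OHT samples and all alternatives for 4OHT were chosen after seeing the data.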
